A study of Mus musculus with 3 samples.

Results

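The mitochondrial carriers of the Slc25 family were examined in hepatocyte RNA of mice on 3 single-colour arrays. The members are the non-control genes that the array names Slc25a followed by a number. Slc25a20 and Slc25a15, which carry acylcarnitine and ornithine, were left out of this set. This gave 40 carriers with 48 probes among 31829 gene names on the array, and the accession of each used probe mapped to the same symbol in RefSeq. Where a carrier had several probes, its brightest probe over the arrays was used. Male wild-type C57BL/6 mice entered the diets at 6 weeks of age and were 22 weeks old at the end, and hepatocytes were obtained with collagenase after an overnight fast. The HFD-anti-VLA-4 group ate a high-fat diet for 16 weeks and received an antibody that blocks VLA-4, an integrin of leukocytes, given intraperitoneally in 2 weekly injections during the final 6 weeks. The HFD-IgG group had the same diet and received control IgG on the same schedule. The standard diet group had standard chow for 16 weeks, and no injection is listed for it, so diet and injection differed together. Each group had 1 array, how many mice an array holds is not stated, and no difference below has a replicate check or a p-value.

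Slc25 proteins sit mostly in the inner mitochondrial membrane and exchange metabolites, nucleotides and cofactors between the cytosol and the matrix. In liver they feed gluconeogenesis, lipid synthesis, the urea cycle and the shuttles that move reducing power into mitochondria. The family is built of repeats, and each repeat opens with a signature: a proline, an acidic residue at the third place and a lysine or arginine at the sixth.

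The probes were 60 bases long. Of the 48, 40 hold at least 1 open forward reading frame and 2 hold the codons of a repeat signature. Shown are these 2, the brighter probe of Slc25a44, whose probes differ in result, and the probe of Slc25a4, which was spotted 10 times. Capitals mark the 6 codons from the proline to the basic residue, in Slc25a33 with a tryptophan codon (TGG) at the third place, a variant added to the search after the probes had been seen. The Slc25a33 and Slc25a26 probes shown cover 3134 and 794 bases of build mm9, more than their own length, so they cross an intron, and they are the dimmer ones of their genes.
Slc25a33, chr4:149123432-149126565, minus strand: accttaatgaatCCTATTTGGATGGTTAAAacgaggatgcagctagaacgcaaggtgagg
Slc25a26, chr6:94548392-94549185, plus strand: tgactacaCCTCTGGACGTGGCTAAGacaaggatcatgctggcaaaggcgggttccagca
Slc25a44, chr3:88224424-88224483, minus strand: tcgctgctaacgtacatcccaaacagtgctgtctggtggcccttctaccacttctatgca
Slc25a4, chr8:47292828-47292887, minus strand: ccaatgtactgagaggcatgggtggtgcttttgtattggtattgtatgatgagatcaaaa

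A level here is the scanner's processed signal divided by the 75th percentile of all 43020 non-control spots of that array, so a level of 1 is the signal of that percentile. Probes differ in how brightly they bind, and levels are therefore set against each other only within a gene. A probe is called detected where the scanner software marked it as well above background. This held for 62.4% of non-control spots in HFD-anti-VLA-4, 66.5% in HFD-IgG and 57.3% in standard diet, and 0 were saturated. All 12 hepatocyte markers were detected on each array, with summed levels of 4334, 4457 and 4570 on the HFD-anti-VLA-4, HFD-IgG and standard-diet arrays. Markers of other liver cells were present too. The 12 Kupffer cell and macrophage markers summed to 51.2, 68.6 and 10.5 in the same order of arrays, the 10 sinusoidal endothelial markers to 34.5, 57.1 and 15.2, and the 10 stellate cell and fibroblast markers to 9.82, 19.9 and 1.85. These sums include probes that were not detected. The HFD-IgG and standard-diet arrays shared a slide, and the HFD-anti-VLA-4 array lay on another, so the effect of the slide and that of the antibody cannot be told apart.

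Of the 40 carriers, 32 were detected on all arrays, 4 on some of them and 4 on none. The 4 on none were Slc25a2, an ornithine carrier, Slc25a18, a glutamate carrier, Slc25a31, the ADP/ATP carrier of testis, and Slc25a41, an ATP-Mg/phosphate carrier. Over the 32, the highest and the lowest array of a carrier differed by a median of 1.28-fold, and for 10 of them by at least 1.5-fold (31.2%, against 33.8% of 17015 genes detected on all arrays). The share among the carriers is thus near that of all genes. The smallest span was 1.04-fold for Slc25a26, the carrier of S-adenosylmethionine, and the largest 2.62-fold for Slc25a27.

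**Figure D1:**
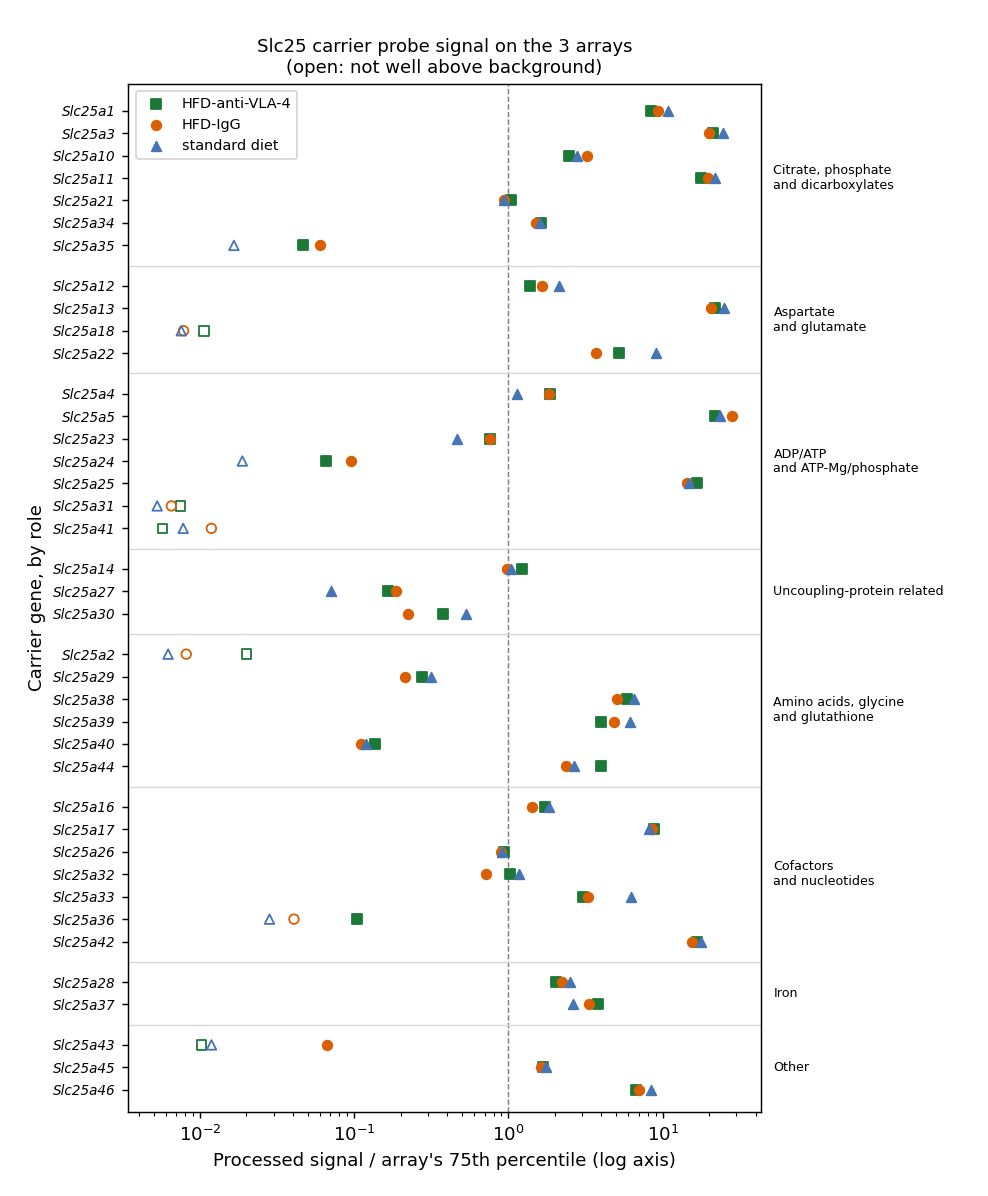
Level of each carrier named here (processed signal over the array's 75th percentile, log axis) on the HFD-anti-VLA-4 (squares), HFD-IgG (circles) and standard-diet (triangles) arrays, 1 array per group, grouped by role. Open symbols were not detected; for most carriers the 3 symbols lie close together, while Slc25a22, Slc25a30 and Slc25a33 lie to the right in standard diet and Slc25a4, Slc25a23 and Slc25a27 to the left.

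The comparison of HFD-IgG with standard diet asks how the carriers differed on the high-fat diet. The glutamate carrier Slc25a22 was 2.45-fold lower and Slc25a30, related to the uncoupling proteins, was 2.41-fold lower in HFD-IgG. The pyrimidine nucleotide carrier Slc25a33 was 1.90-fold lower and the folate carrier Slc25a32 was 1.64-fold lower. Slc25a27, also related to the uncoupling proteins, was 2.62-fold higher, and Slc25a23 and Slc25a4, which carry ATP-Mg and ADP/ATP, were 1.64-fold and 1.61-fold higher. The remaining large differences were lower bounds of dim probes.

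Of 35 carriers compared, 4 were at least 2-fold higher (background 20.4% of 21964 genes), 2 at least 2-fold lower (background 2.42%) and 29 lay between. At 1.5-fold, 6 were higher (background 27.9%) and 4 lower (background 7.79%). Of the 4 higher ones, 3 are lower bounds because the probe was not detected in standard diet. These 3 entered the comparison through their detection in HFD-IgG, so the filter set their direction. With quantile scaling 0 carriers were at least 2-fold higher and 2 lower, and 48.8% of the 2-fold differences over all genes pointed up, against 89.4% with the scaling used here. The carriers' median log2 difference was -0.10, against 0.04 for all genes compared. Among those detected on all arrays, 1 carrier was at least 2-fold higher (background 8.46%) and 2 lower (background 2.09%). Their median was -0.16 for 32 carriers, 25 of them below 0, against -0.05 for all 17015 genes. Over these genes 55.2% lay below 0. The difference of a single bright carrier has a scanner error of 0.20 in log2, which covers spots within an array and not the spread between mice. In whole preparations, fewer cells of a type and less RNA per cell cannot be told apart.

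Of the 7 carriers of citrate, phosphate and dicarboxylates, 1 was at least 2-fold higher in HFD-IgG, as a bound, and 0 were lower. Slc25a3, which brings phosphate into the matrix for ATP synthesis, had levels of 19.8 in HFD-IgG and 24.7 in standard diet. The citrate carrier Slc25a1, which exports citrate for fatty acid synthesis, had 9.31 in HFD-IgG and 10.7 in standard diet. The oxoglutarate carrier Slc25a11 of the malate-aspartate shuttle had 19.6 against 21.8, and the dicarboxylate carrier Slc25a10 had 3.23 against 2.77. All 4 differences were at most 1.24-fold. Slc25a21, an oxoadipate carrier, and Slc25a34 differed by -0.00 and -0.08 in log2. Slc25a35, for which no substrate is given here, had 0.0604 in HFD-IgG and 0.0166, not detected, in standard diet, a difference of at least 2.35-fold. With quantile scaling its log2 difference was 0.04.

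Of 3 measured carriers of aspartate and glutamate, 3 lay below 0 and 1 was at least 2-fold lower in HFD-IgG, where 55.2% of the genes detected on all arrays lay below 0. Slc25a22, with its probe at chr7:148615651-148615710, brings glutamate into the matrix with a proton. Its level was 3.67 in HFD-IgG and 8.99 in standard diet, a log2 difference of -1.29 with a scanner error of 0.20. Over the 9 alternative settings this difference ranged from -1.73 to -1.19. Those that change only the filter, outlier spots, probe averaging or table read cannot move a carrier with 1 probe detected on all arrays. This holds for Slc25a22, and for Slc25a23 and Slc25a27 below. Slc25a13, or citrin, the liver's aspartate-glutamate exchanger, had 20.5 in HFD-IgG and 25.1 in standard diet, and its relative Slc25a12 had 1.65 and 2.12 in that order. These were 1.23-fold and 1.29-fold lower.

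Of 5 measured adenine nucleotide carriers, 4 lay above 0, against 53.4% of all genes compared. Among these 4, Slc25a24 was compared through its detection on the high-fat diet arrays, and the direction of Slc25a5 depended on the background correction. Slc25a4 (ANT1) exchanges ADP for ATP and is the form of heart and muscle. It was spotted 10 times on each array, and its spots read 1.72 to 1.99 in HFD-IgG (mean 1.84, SD 0.0903 over spots) and 0.987 to 1.27 in standard diet (mean 1.14, SD 0.0934). The spots of the 2 arrays did not overlap, although repeated spots measure error within an array and not the spread between mice. The log2 difference of Slc25a4, 0.69, ranged from 0.36 to 0.79 over the alternatives. Slc25a5 (ANT2), the form of liver and dividing cells, had 28.1 in HFD-IgG and 23.5 in standard diet, a log2 difference of 0.26. With normexp background correction its log2 difference was -0.31.

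**Figure D2:**
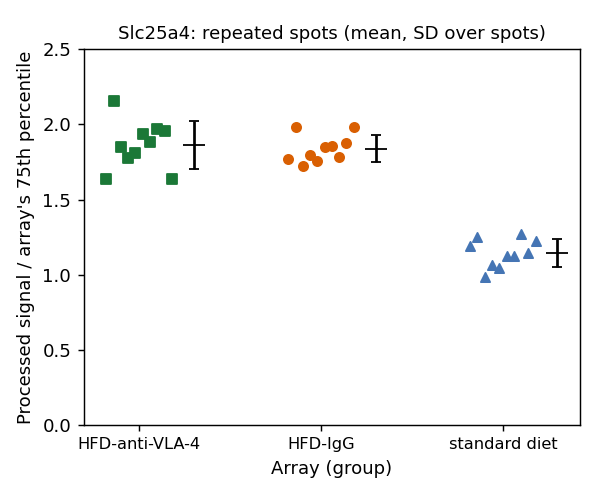
Level of each of the 10 Slc25a4 spots on the HFD-anti-VLA-4, HFD-IgG and standard-diet arrays (processed signal over the array's 75th percentile), with the mean and SD over spots of 1 array beside them. Spots of both high-fat diet arrays lie at or above 1.63, and those of the standard-diet array at or below 1.27.

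Slc25a23, an ATP-Mg/phosphate carrier that responds to calcium, had 0.762 in HFD-IgG and 0.465 in standard diet, and its log2 difference stayed between 0.64 and 0.86 over the alternatives. Slc25a25, of the same kind, had 14.4 in HFD-IgG and 14.8 in standard diet, and its second probe had 6.06 and 6.32. Both probes of Slc25a25 thus showed a difference within the scanner error, although with normexp background correction that of the brighter probe was -0.62. Slc25a24, the third of this kind, was at least 3.73-fold higher, with 0.0958 in HFD-IgG and 0.0188, not detected, in standard diet. Its log2 difference was 0.87 with quantile scaling, which is under 2-fold.

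Among the carriers related to the uncoupling proteins, 1 was higher, 1 lower and 1 nearly level. Slc25a30, with its probe at chr14:76161882-76161941, had 0.222 in HFD-IgG and 0.534 in standard diet, a log2 difference of -1.27 with a scanner error of 0.21. With normexp background correction the difference was -0.12. Slc25a27, with its probe at chr17:43779088-43779147, had 0.186 in HFD-IgG and 0.0707 in standard diet, a log2 difference of 1.39 with a scanner error of 0.26 that ranged from 0.73 to 1.79 over the alternatives. Slc25a14 had 0.975 against 1.03. The uncoupling proteins Ucp2 and Ucp3 of the same superfamily, which bear other names, were 2.83-fold and 2.94-fold higher in HFD-IgG, and Ucp1 was not detected. In the list of carriers outside the set, these were the 2 of 7 compared genes at least 2-fold higher (background 20.4%). None of the 7 was 2-fold lower, and their median was -0.19.

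Of 5 measured carriers of amino acids, glycine and glutathione, 5 lay below 0 in HFD-IgG, and 0 reached 1.5-fold, against the 55.2% of genes below 0 given above. Slc25a29, a carrier of basic amino acids, had 0.215 in HFD-IgG and 0.317 in standard diet. Slc25a38, which brings in glycine for heme synthesis, had 5.08 against 6.53, and Slc25a39, needed for mitochondrial glutathione, had 4.82 against 6.16. Slc25a40, a relative of Slc25a39, and Slc25a44 differed by -0.09 and -0.16 in log2. Of 7 measured carriers of cofactors and nucleotides, 6 lay below 0, against the same share. Slc25a33 had 3.26 in HFD-IgG and 6.19 in standard diet by its brighter probe, and 0.593 against 1.04 by the intron-spanning probe shown above. Both Slc25a33 probes thus gave a similar difference, -0.93 and -0.81 in log2. Slc25a32 had 0.713 in HFD-IgG and 1.17 in standard diet. Slc25a42, which carries coenzyme A, had 15.5 and 17.6 in that order. In this group Slc25a16, Slc25a17 and Slc25a26 differed by at most 1.28-fold. The mitoferrins, which import iron, also differed by at most 1.28-fold, with Slc25a37 at 3.32 against 2.61 and Slc25a28 at 2.24 against 2.49. Slc25a43, of unknown substrate, was at least 2.57-fold higher, with 0.0661 in HFD-IgG and 0.0119, not detected, in standard diet. Over the alternatives the log2 difference of Slc25a43 ranged from 0.21, which is under 2-fold, to 2.48. Slc25a45 and the outer membrane protein Slc25a46 differed by -0.10 and -0.25 in log2. The dimmer Slc25a46 probe, detected on all arrays, gave 0.18, the other direction.

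**Figure D3:**
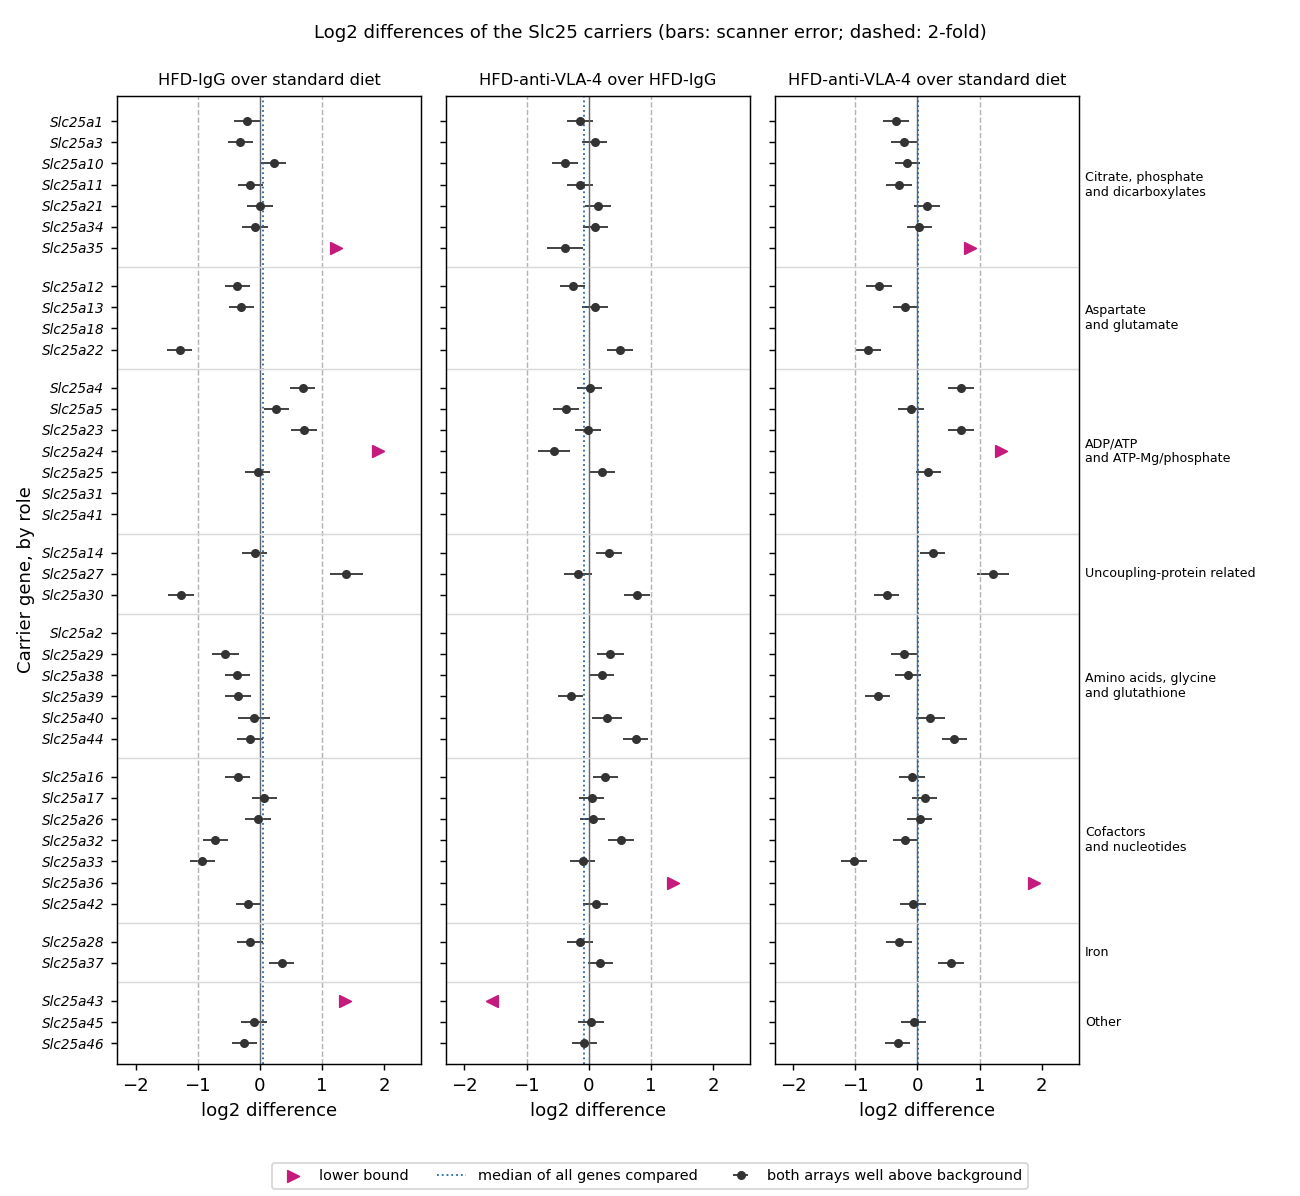
Log2 difference of each carrier named here in the 3 comparisons (panels), grouped by role. Points carry the scanner error of the 2 spots as bars, dashed lines mark 2-fold and the dotted line is the median of all genes compared. Triangles are lower bounds, except that those of Slc25a36 are measured ratios to an undetected signal. Slc25a22 and Slc25a30 lie beyond the left dashed line in the first panel, and in the middle panel only the triangles of Slc25a36 and Slc25a43 lie beyond the dashed lines.

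Markers of Kupffer, endothelial and stellate cells differed between the same arrays. Against standard diet, 12 of 12 macrophage, 8 of 10 endothelial and 9 of 10 stellate markers passed 2-fold upward in HFD-IgG (background 20.4%). Their list medians were 2.63, 2.88 and 3.13 in log2. Of 12 hepatocyte markers, 0 were at least 2-fold higher and 1 lower (background 2.42%). The hepatocyte median was 0.01, with a range from -1.14 for Cps1 to 0.25 for Ttr in log2. Only 3 of the 10 stellate and 10 of the 12 macrophage markers were detected in standard diet. The others were compared through their detection on the HFD-IgG array, so the stellate median rests mostly on undetected signals. The part of these cells in the higher signals of Slc25a4, Slc25a23, Slc25a24, Slc25a27, Slc25a35 and Slc25a43 was not tested. The other mitochondrial genes gave a frame for the carriers. Of 12 subunits and factors listed for mitochondrial content, 0 were 2-fold higher and 0 lower (median 0.04), and the same held for 10 genes that import carriers (median -0.06) and 10 enzymes of the malate-aspartate and citrate-pyruvate shuttles (median -0.16). The cytosolic aspartate aminotransferase Got1, which works with the aspartate-glutamate carriers, had 34.7 in HFD-IgG and 66.4 in standard diet, and malic enzyme Me1 had 7.86 against 12.2. In the list of 14 other membrane transporters, 2 passed 2-fold upward (background 20.4%) and 0 downward (background 2.42%), and both are sideroflexins. Sfxn3 had 0.197 in HFD-IgG and 0.0749 in standard diet. Sfxn4, named after its values were seen, had 0.375 in HFD-IgG and 0.0224, not detected, in standard diet, at least 14.6-fold higher.

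**Figure D4:**
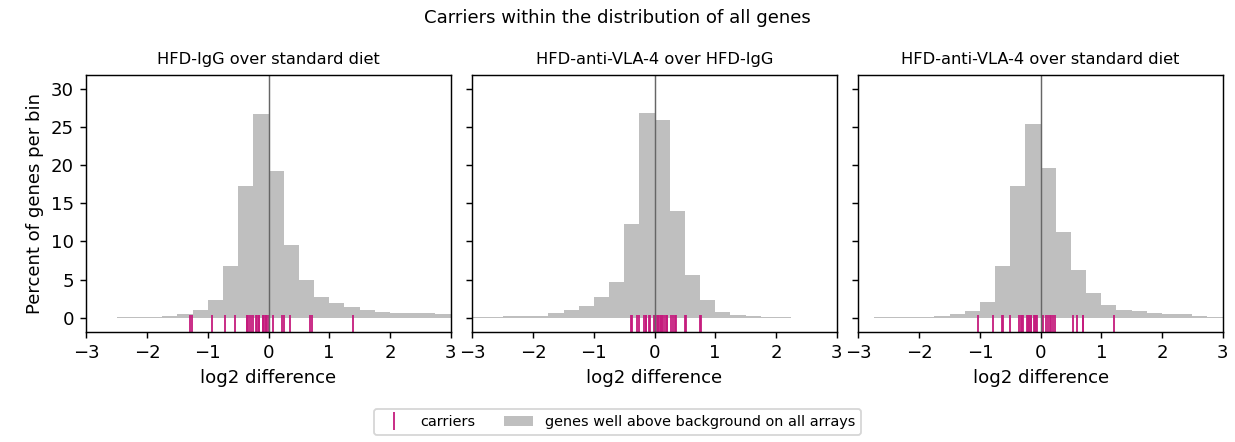
Distribution of log2 differences over the 17015 genes detected on all arrays (grey bars, percent of genes per bin of 0.25) with the 32 such carriers as ticks, for each comparison. The carriers lie within the bulk of all genes, with single carriers such as Slc25a27, at 1.39, and Slc25a22, at -1.29, at its edges in HFD-IgG over standard diet.

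The comparison of HFD-anti-VLA-4 with HFD-IgG asks how the carriers differed with the blocking antibody on the same diet. Slc25a30 was 1.71-fold and Slc25a44 1.69-fold higher in HFD-anti-VLA-4, Slc25a32 was 1.44-fold and Slc25a22 1.42-fold higher. Slc25a24 was 1.47-fold lower. The pyrimidine nucleotide carrier Slc25a36 was 2.55-fold higher, measured against an undetected signal, and Slc25a43 at least 2.95-fold lower, both from dim probes. Each was detected only on the array where it is higher and entered the comparison through that array, so the filter set its direction.

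Of 36 carriers compared, 1 was at least 2-fold higher (background 1.90% of 22551 genes) and 1 at least 2-fold lower (background 16.5%), and 34 lay between. Both probes were not detected on the dimmer array. At 1.5-fold, 3 were higher (background 7.11%) and 1 lower (background 23.3%). Of these 36, 32 were within 1.5-fold and 18 within the scanner error. The median log2 difference was 0.08, against -0.07 for all genes compared. Among genes detected on all arrays, 0 carriers were at least 2-fold higher (background 1.53%) and 0 lower (background 4.31%). Their median was 0.10 for 32 carriers, 21 of them above 0, against -0.01 for all 17015 genes, of which 49.3% lay above 0. With quantile scaling 2 carriers were at least 2-fold higher and 0 lower, and 54.3% of the 2-fold differences over all genes pointed up, against 10.3% with the scaling used here.

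Slc25a44 carries branched-chain amino acids into mitochondria, as known from brown fat. Its brighter probe, shown above, had 3.98 in HFD-anti-VLA-4 and 2.36 in HFD-IgG, a log2 difference of 0.76 with a scanner error of 0.20. The other Slc25a44 probe, at chr3:88214562-88214621, had 0.588 and 0.511 on these arrays, a log2 difference of 0.20. The 2 probes of this gene thus differ in size of effect, and the mean over both was 0.48. Slc25a22 had 5.20 in HFD-anti-VLA-4 and 3.67 in HFD-IgG, a log2 difference of 0.50 that ranged from 0.47 to 0.50 over the alternatives. Slc25a32 had 1.02 against 0.713. Slc25a30 had 0.379 against 0.222, a log2 difference of 0.77, but with normexp background correction it was -0.01.

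Slc25a36 had a level of 0.104 in HFD-anti-VLA-4 and 0.0407, not detected, in HFD-IgG, a log2 difference of 1.35 with a scanner error of 0.45. Slc25a43 had 0.0102, not detected, in HFD-anti-VLA-4 and 0.0661 in HFD-IgG. Its log2 difference of -1.56 ranged from -2.69 to -0.51 over the alternatives, the latter under 2-fold. Slc25a24 had 0.0653 against 0.0958 and Slc25a35 had 0.0463 against 0.0604, and with quantile scaling both of these were higher in HFD-anti-VLA-4, by 0.12 and 0.49 in log2. Slc25a4 read 1.63 to 2.16 over its 10 spots in HFD-anti-VLA-4 (mean 1.86, SD 0.159) and 1.72 to 1.99 in HFD-IgG, and these ranges overlap. Slc25a5 had 21.8 in HFD-anti-VLA-4 and 28.1 in HFD-IgG, 1.29-fold lower, and the dicarboxylate carrier Slc25a10 had 2.48 against 3.23. Slc25a33 differed by -0.10, within the scanner error. The levels of Slc25a13 (22.0 and 20.5), Slc25a3 (21.2 and 19.8), Slc25a11 (17.8 and 19.6) and Slc25a42 (16.8 and 15.5) differed by less than the scanner error between these arrays. Of the markers, 0 of 12 macrophage, 3 of 10 endothelial and 5 of 10 stellate genes passed 2-fold downward in HFD-anti-VLA-4 (background 16.5%). In these 3 lists 0 genes were at least 2-fold higher (background 1.90%). Only 8 of the 10 stellate genes were detected in HFD-anti-VLA-4, and the others were compared through their detection in HFD-IgG. Of 12 hepatocyte markers, 0 were past 2-fold, and their median was 0.29 in log2. The part of macrophages, endothelial and stellate cells in the lower signals of Slc25a24 and Slc25a43 was not tested. Genes for mitochondrial content had a median of -0.14, with 0 of 12 past 2-fold. Sfxn4 had 0.00651, not detected, in HFD-anti-VLA-4 and 0.375 in HFD-IgG, at least 16.7-fold lower.

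The comparison of HFD-anti-VLA-4 with standard diet joins diet, injection, antibody and slide, which cannot be told apart, and it shares an array with each comparison above. Of 35 carriers compared, 3 were at least 2-fold higher (background 7.99% of 20298 genes) and 1 at least 2-fold lower (background 3.39%). At 1.5-fold, 7 were higher (background 16.3%) and 4 lower (background 9.42%). Among the 32 detected on all arrays, 1 was at least 2-fold higher (background 5.86%) and 1 lower (background 2.08%). The median log2 difference was -0.07, against 0.00 for all genes compared, with 16 carriers above 0 and 19 below. Of all genes compared, 50.3% lay above 0. Slc25a33 was 2.03-fold lower, with 3.05 in HFD-anti-VLA-4 and 6.19 in standard diet by the brighter probe, and the intron-spanning probe gave 0.592 and 1.04. With cyclic loess, quantile scaling or the mean over probes this carrier was no longer 2-fold different, and its log2 difference ranged from -1.14 to -0.92 over the alternatives. Slc25a22 had 5.20 against 8.99, 1.73-fold lower, and Slc25a30 had 0.379 against 0.534, 1.41-fold lower. Slc25a39 was 1.56-fold lower, with 3.95 in HFD-anti-VLA-4 and 6.16 in standard diet, and Slc25a12 was 1.54-fold lower, with 1.38 against 2.12.

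Slc25a27 had 0.164 in HFD-anti-VLA-4 and 0.0707 in standard diet, 2.32-fold higher. With quantile scaling its log2 difference was 0.93 and that of Slc25a24 was 0.99, both under 2-fold. Slc25a4 and Slc25a23 were 1.63-fold and 1.62-fold higher, and the 10 Slc25a4 spots of the HFD-anti-VLA-4 array did not overlap those of the standard-diet array. The mitoferrin Slc25a37 had 3.79 in HFD-anti-VLA-4 and 2.61 in standard diet by its brighter probe, 1.45-fold higher, while its dimmer probe had 0.532 and 0.525. Its probes thus disagree in size. Those of Slc25a46 disagree in direction, at -0.32 for the brighter and 0.58 for the dimmer. So do those of Slc25a44, at 0.59 for the brighter and -0.09 for the dimmer. Slc25a24 was at least 2.54-fold and Slc25a35 at least 1.80-fold higher, bounds set because these were not detected in standard diet. Slc25a36 was 3.67-fold higher, measured against its undetected signal in standard diet, so this is no strict minimum. Its log2 difference of 1.88 had a scanner error of 0.52 and ranged from 1.49 to 1.88 over the alternatives. Slc25a24, Slc25a35 and Slc25a36 entered this comparison through their detection in HFD-anti-VLA-4, so the filter set their direction. Of the markers, 12 of 12 macrophage, 8 of 10 endothelial and 7 of 8 measured stellate genes passed 2-fold upward in HFD-anti-VLA-4 (background 7.99%). Their part in the higher carrier signals was not tested. Several of the macrophage and stellate genes were not detected in standard diet.

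Some carriers neighbour each other in the genome. The probes of Slc25a41 and Slc25a23 lie 11.5 kb apart on chromosome 17 of build mm9. Slc25a41 was detected on 0 arrays and Slc25a23 on all 3. The probes of Slc25a43 and Slc25a5 lie 46.2 kb apart on chromosome X, and Slc25a43 was detected in HFD-IgG alone and Slc25a5 on all 3. The used probes held 38.3% to 61.7% purines, and those of the 5 carriers at least 2-fold higher in a comparison held 41.7% to 46.7%.

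Some carriers are listed on the array under older names and so lie outside the set. The accession listed as AI132487 maps to Slc25a47, a mitochondrial carrier of liver, which had 125 in HFD-anti-VLA-4, 94.7 in HFD-IgG and 135 in standard diet. Its log2 difference was -0.51 for HFD-IgG over standard diet and 0.40 for HFD-anti-VLA-4 over HFD-IgG. Mcart1, now Slc25a51, the mitochondrial NAD carrier, had 2 probes with 4.54 and 3.94 in HFD-anti-VLA-4, 3.59 and 2.33 in HFD-IgG and 4.10 and 1.87 in standard diet. These probes differ in the direction of HFD-IgG over standard diet. Slc25a47, Slc25a51 and the neighbouring pairs were chosen for mention after their values were seen.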

How the data were processed

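Hepatocyte RNA, labelled with Cy3, was hybridised to 1 array per group. Per the file headers, the spot intensities that the authors deposited had been background-subtracted and detrended in the scanner software, which the submitters' processing notes name as Agilent Feature Extraction 11.0.1.1. The same software set a mark on each spot for signal over background, an other kind of value per the file headers. A second deposited table gives a linear ratio for 23206 spots, equal to the processed signal over the array's 75th percentile, with a largest relative deviation of 2e-08 from the scanner files. Its column medians are 0.810 for HFD-anti-VLA-4, 0.796 for HFD-IgG and 0.787 for standard diet.

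Levels were computed as processed signal over the 75th percentile of 43020 non-control spots, which was 514 for HFD-anti-VLA-4, 500.3 for HFD-IgG and 574 for standard diet. Outlier-marked spots, 117 to 158 an array, were dropped, and repeated spots were averaged in log2. Each of 31803 gene names took the probe with the highest mean. Genes marked as detected on at least 1 of the 2 arrays entered a comparison. Where the dimmer array did not detect the gene, a lower bound was taken, using the larger of that gene's signal and the array's lowest detected signal. Where the gene's own signal was the larger, as for Slc25a36, the value is the measured ratio and no strict minimum. The rule for calls was 2-fold. The number of arrays limits the precision.

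Names and lists were given by a rule: members by role, values for those past 2-fold or with the highest signal, and up to 3 genes of each list of related genes. Further carriers were given values after these had been seen. The other transport list held 14 genes on the array. Lists of cholangiocyte, erythroid, neutrophil, T and NK cell and adipocyte markers and of mitochondrial regulators were also measured. The members and lists were chosen with earlier results of these data known. A member of the set is counted but not reported by name here. The steps were tested on simulated data. Alternative scalings ran in limma 3.58.1 under R 4.3.3, and all else in Python 3.11.15 with pandas 2.3.3 and numpy 2.4.6.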

Additional observations from a re-analysis of the deposited data

How the results depend on the processing

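No paired analysis was possible because each group has 1 array, and no array could be left out. Over the carriers followed singly, 445 of the values under alternative settings moved by no more than the scanner error, 52 moved by more, and 4 changed sign where the reported difference was beyond the scanner error. Many of the 445 could not move. Keeping outlier spots (58 values), the deposited table (48) and the filter for detection on all arrays (48) return the reported value of a carrier by construction. The mean over probes can change only carriers with several probes. In all, 16 of 501 values lay on the other side of 0, and the cause was not tested. With quantile scaling Slc25a24 and Slc25a35 were 0.12 and 0.49 for HFD-anti-VLA-4 over HFD-IgG. With normexp background correction Slc25a30 was -0.012 in that comparison and Slc25a5 -0.31 for HFD-IgG over standard diet. Normexp accounted for 35 of the 52 moves; it shifted the median of all genes by 0.55 for HFD-IgG over standard diet, -0.11 for HFD-anti-VLA-4 over HFD-IgG and 0.33 for HFD-anti-VLA-4 over standard diet, and quantile scaling by -0.13, 0.13 and -0.04. For HFD-IgG over standard diet the carriers' median was -0.41 with normexp.

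For HFD-IgG over standard diet, 4 carriers were at least 2-fold higher and 2 lower. The count higher was 0 with quantile scaling, 2 with cyclic loess and 1 in the deposited table, with genes detected on all arrays, or at a 3-fold threshold. The count lower was 4 at 1.5-fold and 0 at 3-fold. For HFD-anti-VLA-4 over HFD-IgG, 1 was higher and 1 lower. The count higher was 3 at 1.5-fold, 2 with no filter or quantile scaling, and 0 with normexp, at 3-fold, in the deposited table or with genes detected on all arrays. The count lower was 2 with no filter and 0 in those last 4 settings and with quantile scaling. For HFD-anti-VLA-4 over standard diet, 3 were higher and 1 lower. The count higher was 7 at 1.5-fold, 5 with no filter or normexp, and 1 at 3-fold, with quantile scaling, in the deposited table or with genes detected on all arrays. The count lower was 4 at 1.5-fold, 2 with normexp, and 0 at 3-fold, with cyclic loess, quantile scaling or the mean over probes. Signal near background limits the carriers given as bounds.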

Other observations

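Other marker lists were measured on the same arrays. S100a8 and S100a9, calcium-binding proteins of neutrophils, had levels of 0.419 and 1.77 in HFD-anti-VLA-4, 0.102 and 0.383 in HFD-IgG, and 0.0369 and 0.217 in standard diet. The other measured genes of this list went the other way between the high-fat diet arrays. Ccr2 had 0.0560 in HFD-anti-VLA-4 and 0.160 in HFD-IgG, and Csf3r had 58.3 and 69.7. Of these 4 genes, 2 were thus at least 2-fold higher (background 1.90%) and 1 lower (background 16.5%). Of 4 measured erythroid markers, 0 were at least 2-fold higher (background 20.4%) and 2 lower (background 2.42%) in HFD-IgG over standard diet. Of 3 measured T and NK cell markers, 0 were past 2-fold in HFD-anti-VLA-4 over HFD-IgG. Of 5 cholangiocyte markers, 3 were at least 2-fold higher in HFD-IgG over standard diet (background 20.4%), and 3 were at least 2-fold lower in HFD-anti-VLA-4 over HFD-IgG (background 16.5%). All of these rest on dim probes not detected on the other array. The remaining 2 were lower in HFD-IgG than in standard diet, Sox9 with 0.182 against 0.301 and Krt19 with 0.0619 against 0.0726. Of 4 adipocyte genes, 2 were detected on some array. Of 7 mitochondrial regulators, 0 were past 2-fold in any comparison, and Hnf4a, a hepatocyte transcription factor, had 111 in HFD-anti-VLA-4, 92.7 in HFD-IgG and 148 in standard diet.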
